A study of Mus musculus with 7 samples.

Results

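Igfbp1 and Igfbp3 encode secreted proteins that bind insulin-like growth factors (IGFs), and the genes lie tail to tail on mouse chromosome 11. The Igfbp1/Igfbp3 window examined here comprised every listed ATAC-seq site on chromosome 11 whose midpoint fell within 300 kb of the transcription start site (TSS) of either gene, namely 15 of 75880 sites in the table and 15 of the 4425 on this chromosome. The window was chosen by its difference between genotypes, since 1 distal site in it was known to gain accessibility in the absence of Smad2 and Smad3. All differences below are therefore descriptions without a test.

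The study profiled day 2 epiblast-like cells (EpiLCs), which model the primed epiblast and were induced from naive 129/Sv//Ev embryonic stem cells over 48 h in 20 ng/ml activin A and 12 ng/ml Fgf2. In ATAC-seq, Tn5 transposase cuts accessible DNA, so that reads accumulate at open promoters and enhancers. WT cells were clone CCE (3 differentiations), and Smad2/3 DKO cells were clone KT15.1F6 (3 differentiations). The DKO clone carries the Smad2 tm1Rob allele on both copies together with a CRISPR deletion of the region around Smad3 exon 1. Each differentiation was sampled as 75000 cells in 2 technical replicates, and 1 library of Tn5-treated WT genomic DNA (100 ng) served as a control for site calling. With a single clone per genotype, clone and genotype cannot be told apart. The table holds 1 mean per genotype for each site and no value per differentiation, so no replicate error or depth is given here. It also lists p-values from the authors' own comparison, which were not used, and values are given without a p-value. The site nearest to the Smad3 TSS, 221 bp away, had a log2 concentration of 5.42 in WT and lay at the lowest listed DKO value, -0.10. Its position relative to the deleted region was not checked, so missing DNA and lost accessibility cannot be told apart there. Among the EpiLC markers, Fgf5, Pou3f1, Dnmt3b, Pou5f1 and Sox2 had a site within 1 kb of the TSS, and Otx2 had none. All 10 markers of naive, endodermal, trophectodermal and neural cells also had one, at concentrations of 4.57 to 8.5 in WT, so promoter accessibility did not separate cell types.

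Most circulating IGF is held in complexes with IGF binding proteins, which limit its access to the type 1 receptor and prolong its life. Igfbp3 is the main carrier in serum, forming a ternary complex with IGF and the acid-labile subunit. Igfbp1 is a liver-enriched binding protein whose production is suppressed by insulin. Both proteins also bind cell-surface molecules and can act without IGF. Smad2 and Smad3 are the transcriptional effectors of Nodal, activin and TGF-β signals, and the EpiLC culture depends on activin.

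The arrangement of the locus is given in GRCm38 (mm10), the build of the deposited table, with RefSeq transcripts of the curated class. Igfbp1 runs forward from chr11:7197787-7202546 (4760 bp) and Igfbp3 runs in reverse over chr11:7206086-7213923 (7838 bp), so that their TSSs lie 16136 bp apart at the outer ends of the pair. Adcy1, an adenylate cyclase gene of 115074 bp, and Ccdc201 lie on the Igfbp1 side. On the Igfbp3 side, no curated gene is met for 1.22 Mb, until the 3′ end of the tensin gene Tns3. This interval is called the desert below. It holds the predicted non-coding transcripts Gm36565, Gm36653 and Gm36720 and the GENCODE lincRNA Gm11986. Positions in the desert are given as the distance of a site's midpoint upstream of the Igfbp3 TSS.

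The sequences on which the results turn are the 4 sites of the window that differed by more than 1.5-fold between genotypes, all in the desert, and the DNA just upstream of both genes. They were read from the GRCm38 reference of C57BL/6J, whereas the cells were 129/Sv//Ev, and each is printed 5′ to 3′. Capitals mark exact matches, on either strand, to any of 12 consensus strings searched (given with their shares further on). The largest gain, at 209.9 kb, is shown as 300 bp around its midpoint (chr11:7423656-7423955, forward strand), the gain at 198.9 kb likewise (chr11:7412656-7412955, forward), and the losses at 58.1 kb (chr11:7271951-7272110, forward) and 230.8 kb (chr11:7444661-7444840, forward) whole. The promoters are the 250 bp upstream of the Igfbp1 TSS (chr11:7197537-7197786, forward) and of the Igfbp3 TSS (chr11:7213924-7214173, reverse).
Gain at 209.9 kb: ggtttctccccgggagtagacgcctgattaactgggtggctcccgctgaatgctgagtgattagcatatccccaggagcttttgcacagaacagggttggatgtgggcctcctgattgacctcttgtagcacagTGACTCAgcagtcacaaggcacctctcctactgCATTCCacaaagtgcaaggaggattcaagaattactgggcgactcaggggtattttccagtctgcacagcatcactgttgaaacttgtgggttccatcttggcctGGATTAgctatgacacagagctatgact
Gain at 198.9 kb: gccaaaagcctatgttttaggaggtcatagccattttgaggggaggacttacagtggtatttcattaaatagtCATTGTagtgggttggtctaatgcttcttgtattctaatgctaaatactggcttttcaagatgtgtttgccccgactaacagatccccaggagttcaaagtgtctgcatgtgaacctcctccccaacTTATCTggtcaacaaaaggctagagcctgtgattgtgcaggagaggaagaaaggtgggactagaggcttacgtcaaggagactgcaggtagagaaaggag
Loss at 58.1 kb: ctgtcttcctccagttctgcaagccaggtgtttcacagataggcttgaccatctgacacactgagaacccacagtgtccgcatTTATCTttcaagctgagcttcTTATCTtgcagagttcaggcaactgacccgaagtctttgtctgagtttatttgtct
Loss at 230.8 kb: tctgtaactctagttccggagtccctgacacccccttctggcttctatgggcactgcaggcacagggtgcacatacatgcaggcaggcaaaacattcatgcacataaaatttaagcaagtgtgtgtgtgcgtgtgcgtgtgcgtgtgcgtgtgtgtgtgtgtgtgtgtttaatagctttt
Igfbp1 promoter: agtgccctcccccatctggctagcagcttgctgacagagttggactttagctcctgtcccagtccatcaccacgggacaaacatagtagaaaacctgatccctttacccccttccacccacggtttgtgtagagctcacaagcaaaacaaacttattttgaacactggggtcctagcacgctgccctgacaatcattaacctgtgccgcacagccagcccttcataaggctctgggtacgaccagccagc
Igfbp3 promoter: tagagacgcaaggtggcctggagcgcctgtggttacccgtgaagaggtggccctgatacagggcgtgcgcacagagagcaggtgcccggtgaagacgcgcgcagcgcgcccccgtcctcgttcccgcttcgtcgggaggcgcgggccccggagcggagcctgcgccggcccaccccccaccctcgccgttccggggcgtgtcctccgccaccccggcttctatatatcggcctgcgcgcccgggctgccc

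The largest gain of the window lay 209.9 kb upstream of Igfbp3, at chr11:7423210-7424400 (1190 bp). Its concentration, the log2 of the mean normalized reads in each genotype, was 7.58 in WT and 9.03 in DKO, a difference of 1.45 or 2.73-fold. In reads, the authors' means were 191 in WT and 523 in DKO, or 161 and 439 per kb of site. An increase in the number of cells with the site open and an increase in its openness per cell cannot be told apart in such pooled cells. The site was intergenic in curated RefSeq and in GENCODE, and 53 bp of its near end overlapped exon 4 of 4 of the predicted transcript Gm36653. Its nearest curated TSS was that of Igfbp3, while the TSS of Tns3 lay 1240 kb away in the other direction.

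A second gain lay closer to Igfbp3, at 198.9 kb (chr11:7412630-7412980, 350 bp, within an intron of Gm36653). The gap between the facing edges of these sites was 10.2 kb. Its concentration was 4.77 in WT and 5.82 in DKO, a difference of 1.05 or 2.07-fold, which corresponds to 27.3 and 56.5 reads. In the window, 2 of 15 sites (13.3%) were thus higher in DKO by more than 1.5-fold, against 8.51% of all 75880 sites. Because the window was selected on such a gain, nothing is read from this share.

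Lower accessibility in DKO by more than 1.5-fold was also seen at 2 of the 15 sites (13.3%), against 16.0% of all sites, a share near the background. The loss at 58.1 kb (chr11:7271950-7272110, 160 bp, in a Gm11986 intron) had concentrations of 3.30 in WT and 2.23 in DKO, a difference of -1.07 or 2.10-fold. The loss at 230.8 kb (chr11:7444660-7444840, 180 bp, intergenic) had 3.93 in WT and 3.21 in DKO, a difference of -0.72 or 1.65-fold. Both are weak, narrow sites, with 9.85 and 15.2 reads in WT and 4.69 and 9.25 reads in DKO. They were also 2 of the 3 sites of the window with a concentration under 4 over both genotypes, and 66.3% of the 300 bp around the second is repeat-masked.

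The Igfbp3 promoter site was at nearly the same level in both genotypes. This site (chr11:7213380-7214710, 1330 bp) covers the TSS and exon 1 of 5, including 406 coding bp, and its midpoint lies 122 bp upstream of the TSS. Its concentration was 7.37 in WT and 7.29 in DKO, a difference of -0.08, equal to the median of all listed sites (-0.08). In reads, the means were 165 and 156. The only other site within 50 kb of the Igfbp3 TSS, 8.2 kb upstream, was weak, with 3.39 in WT and 3.12 in DKO.

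Igfbp1 had no listed site within 10 kb of its TSS in either genotype. The site nearest to it was the Igfbp3 promoter site, 16.3 kb away, and its 3 sites within 50 kb differed between genotypes by -0.37, -0.08 and -0.27. A listed site covers the TSS of 51.9% of curated genes, so Igfbp3 belongs to that class and Igfbp1 does not. The number of sites within 300 kb was 15 for Igfbp1 and 14 for Igfbp3, against a median of 22 over curated genes.

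The promoter of Adcy1, whose product makes cyclic AMP, carried the third strongest site of the window in both genotypes (chr11:7063090-7064000, 910 bp). It covers the TSS and exon 1 of 20 and had concentrations of 6.36 in WT and 6.34 in DKO. Between this site and Igfbp1, the Adcy1 intron held a site at 4.72 in WT and 4.20 in DKO, and exon 17 a site at 4.44 and 4.07. The 2 sites beyond the Adcy1 promoter, near the edge of the window, were intergenic and differed by -0.14 and 0.55. All 5 sites on the Adcy1 side were within 1.5-fold, with a median difference of -0.14.

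**Figure D1:**
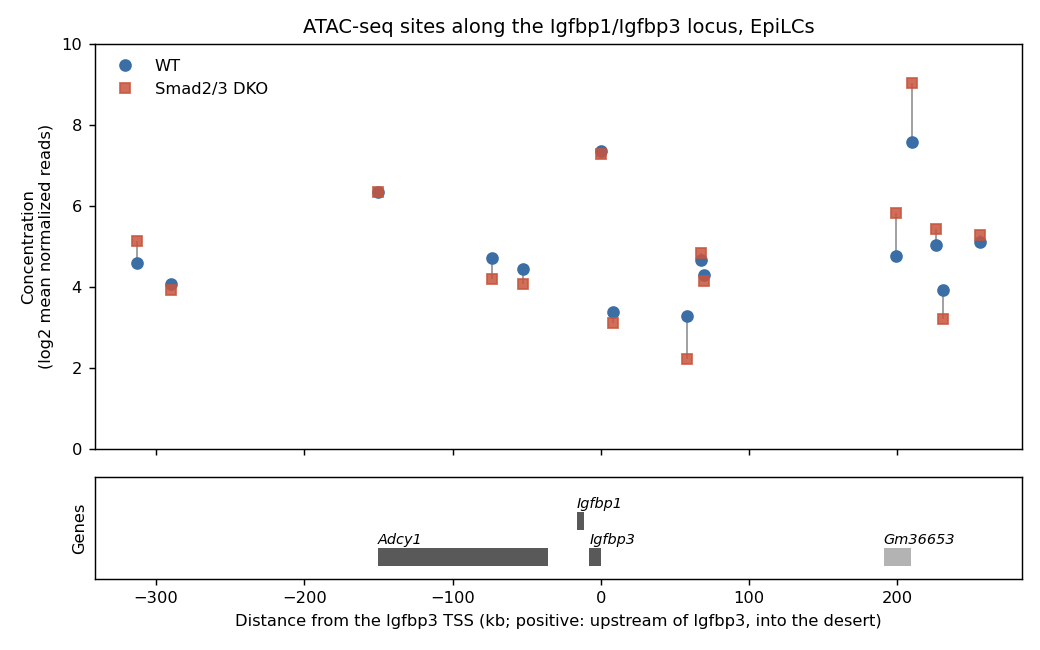
Concentration (log2 mean normalized reads) of the 15 listed sites in WT (blue circles) and Smad2/3 DKO (red squares) EpiLCs against the distance from the Igfbp3 TSS in kb, with positive values upstream in the desert. Each point is the authors' mean over 3 differentiations, with no error available, and grey lines join the values of a site. The site at 209.9 kb rises from 7.58 to 9.03, while the Igfbp3 promoter site at 0 is at 7.37 and 7.29. The lower panel draws the curated genes Adcy1, Igfbp1 and Igfbp3 in dark grey and the predicted transcript Gm36653 in light grey. Ccdc201 and the other transcripts of the desert are not drawn.

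Along the desert, the gains were part of a group of 5 sites over 57.6 kb, set off by 129.2 kb without a site on the Igfbp3 side and 63.1 kb on the Tns3 side. The members of this group did not move together. From the Igfbp3 side outwards, their differences were 1.05, 1.45, 0.39, -0.72 and 0.17. The site at 226.3 kb (720 bp) had concentrations of 5.04 in WT and 5.43 in DKO, and the site at 256.0 kb (710 bp) had 5.12 and 5.29. The loss at 230.8 kb, described above, lies between these. Nearer to Igfbp3, the sites at 67.9 kb and 69.3 kb, both in Gm11986 introns, had 4.67 and 4.30 in WT and 4.84 and 4.15 in DKO. The 9 sites on the desert side had a median difference of 0.17.

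The order of the sites by reads per kb changed with genotype. In WT, the 209.9 kb site (161 reads per kb) stood first, ahead of the Igfbp3 promoter site (124) and the 67.9 kb site (102). In DKO, the 209.9 kb site (439) was followed by the 198.9 kb site (161), the Igfbp3 promoter site (118) and the 67.9 kb site (115). No spread is available to say which neighbours in these orders differ. The Adcy1 promoter site was at 90.3 reads per kb in WT and 89.0 in DKO.

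The window was selected for the gain at 209.9 kb, and the summed reads are given as a description of how far it bears on the total. Summed over the 15 sites, the mean reads were 703.7 in WT and 1053.9 in DKO, a ratio of 1.5. Without the 209.9 kb site, the sums were 512.4 and 531.2, a ratio of 1.04, and the ratio over all listed sites was 0.954. The 209.9 kb site held 27.2% of the window's reads in WT and 49.6% in DKO. The sites are unequal in width, and the summed reads moved with this 1190-bp site, which is wider than most (5.81% of all sites are at least as wide).

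**Figure D2:**
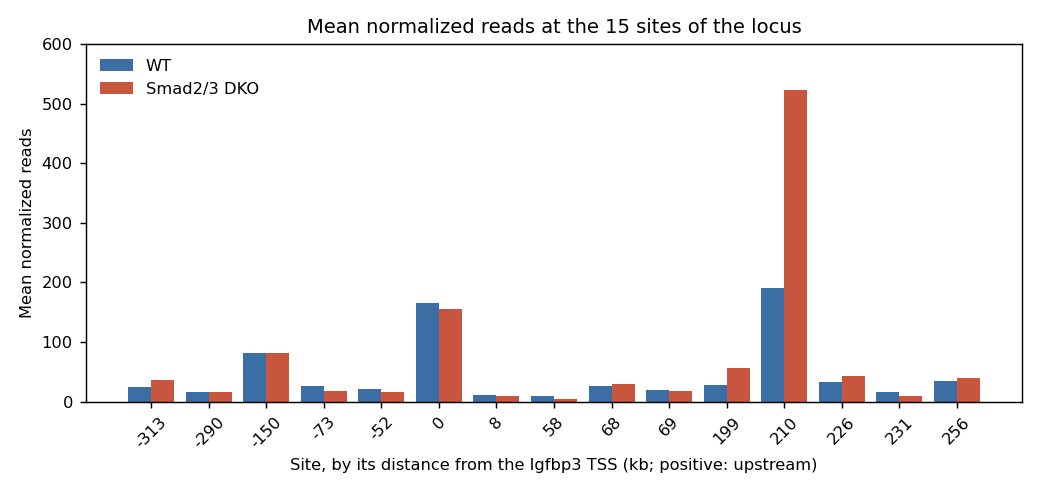
Mean normalized reads (linear axis from 0) at the 15 sites in WT (blue bars) and Smad2/3 DKO (red bars), ordered and labelled by distance from the Igfbp3 TSS in kb. Bars are the authors' means over 3 differentiations, without error. The site at 209.9 kb reaches 191 reads in WT and 523 in DKO, and the next highest bar is the Igfbp3 promoter site at 165 and 156.

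Over the whole window, 11 of 15 sites differed by less than 1.5-fold, between -0.52 and 0.55, with 6 sites higher and 9 lower in DKO. The median difference was -0.08, the same value as over all listed sites. The other 4410 sites of chromosome 11 had a median of -0.02, with 8.98% higher and 13.1% lower by more than 1.5-fold. Sites 50 to 500 kb from a TSS on all chromosomes, the distance class of the 209.9 kb site, had a median of -0.14, with 9.42% higher and 20.9% lower.

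Strong sites rarely differed as much as the 209.9 kb site. Of the 3027 sites with a concentration over both genotypes within 0.5 of its own (8.48), the 5th to 95th percentile of the difference ran from -0.35 to 0.28, and it was the single one at 1.45 or above. Of the 2061 sites at least as strong, 8 were higher and 12 lower in DKO by more than 1.5-fold, and the next largest difference was 1.32. Without regard to level, 827 sites had a difference of at least 1.45. In WT, 92.0% of all sites lay below it, and in DKO 99.0%. Among the 25153 sites 50 to 500 kb from a TSS, 742 were at its level or above in WT and 29 in DKO. These values describe the site by which the window was chosen, so nothing is read from its rank.

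The other sites past 1.5-fold stood closer to the bulk of sites of their level. For the 198.9 kb site, 0.907% of 18296 sites of like level had a difference at least as high, and their 5th to 95th percentile ran from -0.89 to 0.60. The losses were within the usual spread of weak sites. At the level of the 58.1 kb site this range ran from -2.08 to 1.73 (4415 sites), with 20.9% at least as low. At that of the 230.8 kb site it ran from -1.50 to 1.12 (15527 sites), with 22.2% at least as low. The 198.9 kb site was named for passing 1.5-fold in a window chosen for a gain, so nothing is read from its share.

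**Figure D3:**
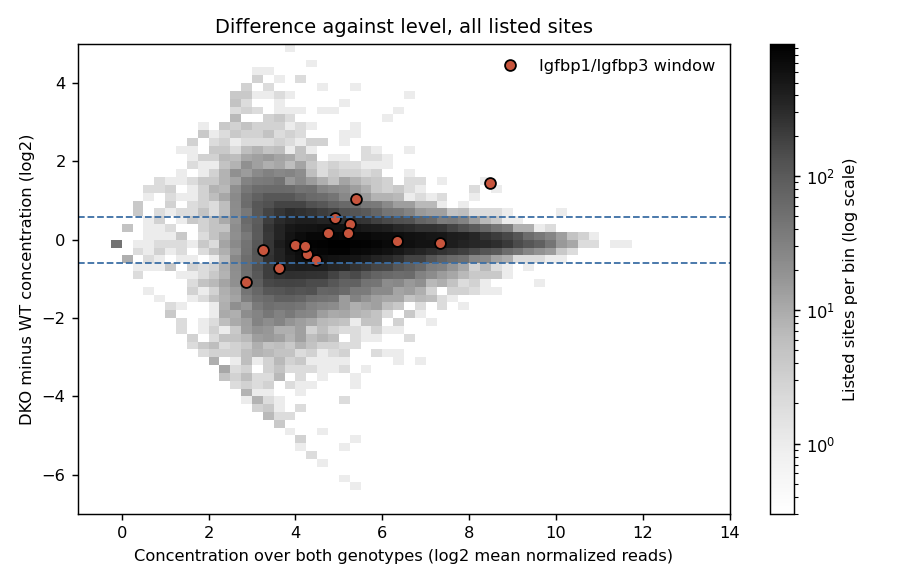
DKO minus WT concentration (log2) against the concentration over both genotypes (log2 mean normalized reads) for all 75880 sites, as counts per bin in grey on a log scale, with the 15 sites of the window as red points. Dashed lines mark 1.5-fold in either direction. The point at a concentration of 8.48 and a difference of 1.45 lies above the other sites within 0.5 of its concentration, and 11 points lie between the lines.

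Sites beyond the edges of the window are given as a description, since the window was chosen for its gain. The 20 sites of the desert further towards Tns3 differed by -0.96 to 0.87, with a median of -0.12. Of them, 1 was higher and 4 lower by more than 1.5-fold, against 8.51% and 16.0% of all sites, and none exceeded 6.71 in DKO. The 25 sites next to the window on the Adcy1 side, over 634 kb, had a median difference of 0.28 and a range of -0.67 to 1.11. Of these, 4 were higher and 1 lower by more than 1.5-fold. The 25 next to the window on the desert side, over 971 kb, include the 20 desert sites above and are not a separate set. They had a median of -0.09, with 2 higher and 5 lower. The first site left out on the Adcy1 side lay 302302 bp from the nearer TSS, at 6.90 in WT and 7.36 in DKO, and the first on the desert side lay 319722 bp away, at 6.41 and 6.71. The outermost sites kept were those 296.8 kb from the Igfbp1 TSS, at 4.60 and 5.15, and 256.0 kb from the Igfbp3 TSS.

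The DNA of the 209.9 kb site was of ordinary composition, with 51.0% GC and 4 CpGs in the 300 bp around its midpoint, equal to the median GC of all sites, and none of it repeat-masked. The strings searched there, on both strands, were those of AP-1, CTCF and factors of pluripotent, extra-embryonic and Smad-regulated chromatin. Of them, the printed 300 bp held AP-1 (TGANTCA, in 8.74% of all sites), Tead (GGAATG, 17.6%) and Otx2 (GGATTA, 8.71%). The strings for the Smad box, the Smad GC element, FoxH1, Sox, Gata and the octamer were not in it. The Smad box was searched only as GTCTAGAC and the Smad GC element only as GGCGCC. Shorter or variant forms of these elements were not searched, so their absence is not shown. A match describes these letters and is not a measured binding site.

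AP-1 is the name for Fos and Jun dimers, and the whole 1190 bp held 4 matches to the string searched for it. That string allows any base at its centre: match 1 reads TGAATCA, and the others read TGACTCA or TGAGTCA. This count was made after the values had been seen and at a site chosen for its gain, so nothing is read from its rarity. Of the 4 matches, 1 lay in the printed 300 bp. At least 4 matches were found in 21 of all sites (0.0277%) and in 4 of the 4409 sites at least as wide (0.0907%), while 12.7% of all sites held any match. The matches are shown with 10 bases on each side, the match in capitals, on the forward strand, at chr11:7423273-7423299, chr11:7423780-7423806, chr11:7423998-7424024 and chr11:7424206-7424232. The whole site also held an octamer and a Sox string outside the printed window.
AP-1 match 1: gtttcagcatTGAATCAgaacccgatg
AP-1 match 2: tgtagcacagTGACTCAgcagtcacaa
AP-1 match 3: ggagtcagccTGACTCAggccttggca
AP-1 match 4: gaggtgaaggTGAGTCAcagagaagtt

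Across the window, strings were counted in the 300 bp around each midpoint, which reach beyond the narrower sites. Counted so, the AP-1 string was at 3 of 15 sites (20.0%, against 8.74% of all sites). Within whole sites, 2 members held it, against 12.7% of all sites. In the 300 bp, the Gata string (AGATAA) was at 4 sites (26.7%, against 10.9% of all sites) and the Sox string (CATTGT) at 4 (26.7%, against 13.2%). The 198.9 kb site held Sox and Gata strings, and the 58.1 kb site held 2 Gata strings. The Smad GC element (GGCGCC) was in 2 sites (9.29% of all sites), the Adcy1 promoter and the Adcy1 exon 17 site. The Tead string and the Otx2 string were each in 2. The Tfap2 string (GCCNNNGGC, 14.0% of all sites), which can overlap the Smad GC element, was in the Adcy1 promoter site alone, and the CTCF consensus (4.53%) in the exon 17 site alone. The Smad box (GTCTAGAC, 0.224%), FoxH1 (TGTGGATT, 1.07%), octamer (ATGCAAAT, 3.16%) and Esrrb (TCAAGGTCA, 0.494%) strings were in the 300 bp of no site. The whole 209.9 kb site did hold an octamer, as given above.

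The promoters of Igfbp1 and Igfbp3 printed above held none of the 12 strings. The whole Igfbp3 promoter site, which extends into the gene, held a Smad GC element and a Tfap2 string outside the 300 bp around its midpoint. They differed in composition, the 250 bp upstream of Igfbp1 being 53.2% GC and those of Igfbp3 73.2%, against a median of 52.4% over 32851 RefSeq promoters. Of these promoters, 52.6% were below Igfbp1 and 94.3% below Igfbp3. The Igfbp3 promoter is thus GC-rich and lies under a strong site, and the Igfbp1 promoter has average GC and no listed site.

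Other genes of the IGF pathway were taken as a list of 24, with 103 listed sites within 50 kb of a TSS. Of these sites, 10 (9.71%) were higher and 17 (16.5%) lower in DKO by more than 1.5-fold, against 8.51% and 16.0% of all sites, and their median difference was -0.06. At the site nearest to the TSS, within 1 kb, 20 genes had a value, of which none was higher and 2, Igfbp4 (3.64 in WT, 2.50 in DKO) and Stc1, lower by more than 1.5-fold. The 209.9 kb site lies outside the 50 kb and is not among the 103.

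Of the ligands, the growth factor gene Igf1 had 3 sites, none past 1.5-fold, and Igf2 had 6, of which 2 were lower. The site near Igf2 with the largest difference lay 48274 bp upstream, nearest to the insulin gene Ins2, at 4.79 in WT and 4.06 in DKO. Of the receptors, the signalling receptor Igf1r had 1 lower site of 2, in its intron (4.32 and 3.69), and the insulin receptor Insr 1 lower of 2. Igf2r, which clears Igf2 and is imprinted, had 1 higher and 1 lower of 4. The higher site, in an intron of Igf2r and of its antisense RNA gene Airn, was at 3.89 in WT and 4.91 in DKO.

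Near the binding protein genes, 0 of 32 distinct sites were higher in DKO by more than 1.5-fold and 8 (25.0%) were lower, beside 8.51% and 16.0% of all sites, also untested. Igfbp1 (3 sites, 2 of them shared with Igfbp3), Igfbp3 (2) and Igfbp5 (7) had none past it in either direction. Igfbp2, which shares 6 of its sites with its neighbour Igfbp5, had 1 lower site of 11, at 19175 bp upstream (5.23 and 4.51), and Igfbp4 1 lower of 3. Igfbp6, which prefers Igf2, had 4 lower of 7, the strongest change at a concentration of at least 4 being in an exon of the neighbouring gene Tns2 (6.53 and 5.45). Igfbp7, which binds IGF weakly, had 2 lower of 7, including an intronic site 39635 bp downstream of the TSS at 5.00 in WT and 3.46 in DKO. Igfals, the acid-labile subunit, had 4 sites and none past 1.5-fold.

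Of the genes for IGFBP proteases, Pappa (2 sites) and Pappa2 (3) had no site past 1.5-fold, and Htra1, whose protease also cuts IGFBPs, had 2 higher of 8. The stanniocalcin genes Stc1 and Stc2, inhibitors of the pappalysins, each had 1 lower of 3, at the Stc1 TSS (5.26 and 4.63) and 1609 bp upstream of Stc2 (4.93 and 4.28). Of the adaptors, Irs1 had 1 lower of 5, Irs2 none of 3 and Grb10, an inhibitor of receptor signalling, 1 higher of 3. Of the 20 sites near the Igf2 mRNA binding protein genes, 6 (30.0%) were higher and 1 (5.0%) lower, beside 8.51% and 16.0% of all sites, a grouping that was not tested. Igf2bp1 had 2 of 8, the larger being in its exon (3.23 and 4.60), Igf2bp2 had 1 of 3, 24381 bp upstream (4.03 and 4.70), and Igf2bp3 had 3 higher and 1 lower of 9, the largest at the TSS of the neighbouring gene Tra2a (4.62 and 5.44).

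**Figure D4:**
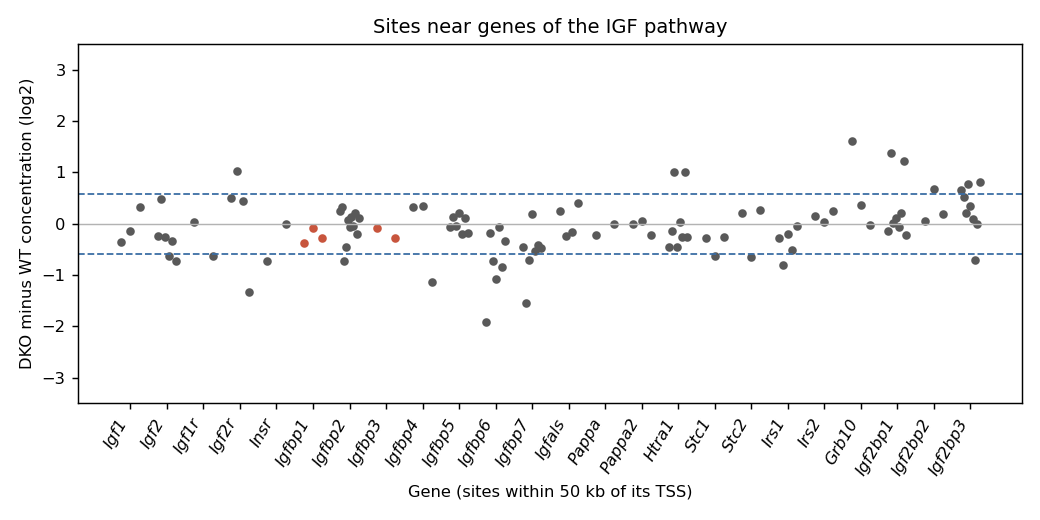
DKO minus WT concentration (log2) of each listed site within 50 kb of a TSS of the 24 genes of the IGF list, with the sites of Igfbp1 and Igfbp3 in red and the points of a gene spread sideways for legibility. Dashed lines mark 1.5-fold. All red points lie between the lines, and 10 sites lie above the upper line and 17 below the lower one.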

How the data were processed

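Per the methods and the submitters' processing notes, the authors aligned ATAC-seq reads to mm10 with bowtie2, removed duplicates with Samtools, called sites with DANPOS2 and compared genotypes with DiffBind (versions not given in the sources used here). The deposited values used are log2 concentrations, which the authors computed as log2 means of normalized reads, in 1 column per genotype and 1 for all libraries. The columns of the authors' own comparison (log2 fold, p-value and FDR) were not used, and 0 columns held values per library. Differences are the DKO minus the WT concentration, past 1.5-fold above 0.585. No test was run, because those columns were set aside and the remaining ones hold 1 mean per genotype; depth is unknown.

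The window, its members and all lists were chosen with earlier results of these data known. Named sites were those nearest to both TSSs, every site past 1.5-fold, and the 3 highest per genotype; other sites of the window were added for completeness. Named near the IGF list was, per gene, the largest difference past 1.5-fold at a concentration of at least 4. Promoter sequences are RefSeq's for GRCm38. TSSs came from 45756 curated RefSeq transcripts. Window membership, nearest TSS, calls and string matching were tested on simulated data. Python 3.11.15, numpy 2.4.6, pandas 2.3.3 and matplotlib 3.10.9 were used. Other folds, filters, window sizes, distances and scalings were tried.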

Additional observations from a re-analysis of the deposited data

How the results depend on the processing

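No paired analysis was possible because the labels number the differentiations of both genotypes but the columns hold only genotype means; leaving out a replicate was not possible for the same reason. The value at 209.9 kb stayed past 1.5-fold with 1 or 8 reads added to each mean and with centring on the median of all sites (1.53). With 8 reads added, the losses at 58.1 and 230.8 kb became -0.49 and -0.43. The window's higher and lower counts were 2 and 2. At a difference of 25% they were 4 and 4, within 100 kb of a TSS (7 sites) 0 and 1, and with centring 3 and 2. The lower count was 1 at a fold of 2 and 0 with 8 reads added or at a concentration of at least 4 (12 sites). The median of -0.08 became 0.08 at a concentration of at least 4, -0.27 within 100 kb and 0.04 within 500 kb (23 sites). For the IGF list, the 10 higher and 17 lower sites became 1 and 7 within 10 kb, 18 and 29 at a difference of 25%, 5 and 5 at a fold of 2, 6 and 5 with 8 reads added, and 6 and 10 at a concentration of at least 4. The Gata string was in 7 sites (46.7%) in 500 bp windows, against 18.9% of all sites. The AP-1 matches at 209.9 kb numbered 1 in 300 bp and 4 in the whole site, an alternative chosen after seeing the data. In all, 51 of 75 alternatives stayed on their side of the threshold or within their allowed range. These include adding predicted transcripts and measuring from the site edge, which left the window's counts and median as they were. The higher count of 3 with centring was also among them. The total is therefore not read as a measure of robustness. Depth per library, and so the precision of weak sites, is unknown.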
